A study of Rattus norvegicus with 6 samples.

Results

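Complement is a cascade of plasma and tissue proteins that tags cells, debris and microbes for removal, and 8 of its genes, with that of clusterin, were followed here in rat Achilles tendon at 2 ages. The set was fixed by name: the 3 chains of C1q (C1qa, C1qb and C1qc), the C1 proteases C1r and C1s, the components C2, C3 and C4b, and Clu, which encodes the extracellular chaperone clusterin. Of these 9 genes, 8 had a row of their own among the 22093 genes of the array table. C2 shared its only row with its neighbour Cfb and could not be measured alone.

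The 6 arrays came from normal male Sprague Dawley rats, 1 rat per array. In the P 6w group there were 3 rats aged 6 to 8 weeks, and in the P 1d group 3 rats at 1 day after birth. No transgene or treatment was involved. The Achilles tendon of the left hindlimb was taken whole with the skin removed, so its RNA is a mixture of every cell type present, and fewer cells of a type and less RNA per cell cannot be told apart. All values below are log2 signals from RMA, the robust multi-array average that condenses many probes into 1 value per transcript. Differences are P 6w minus P 1d on that log2 scale, and a gene was called when limma gave an adjusted p under 0.05 over all genes and an absolute difference over 1.

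The arrays differed in ways that bear on these genes. Taken over all rows, the median signal was 4.43 to 4.54 on the P 6w arrays and 3.93 to 3.98 on the P 1d arrays, and from 968 to 1607 genes reached a signal of 8 at P 6w, against 2783 to 2873 at P 1d. Epidermal genes were bright on P 1d replicates 1 and 3 only, with the keratin gene Krt1 at 17.94 and 18.86 there and at 4.25 on P 1d replicate 2. Of 6 measured epidermal markers the mean signal was 4.56 to 4.85 at P 6w and 4.24 to 13.36 at P 1d. Skeletal muscle RNA was present at both ages, with the actin gene Acta1 between 17.41 and 19.59 at P 6w and between 19.74 and 19.79 at P 1d. Among tendon markers, Tnmd, which encodes tenomodulin, and Kera, which encodes the proteoglycan keratocan, were bright at both ages (Tnmd 9.36 to 13.47 at P 6w and 13.44 to 14.91 at P 1d, Kera 12.61 to 15.90 at P 6w and 14.11 to 15.77 at P 1d).

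The classical pathway starts when C1q, a bundle of collagen-tailed trimers of its A, B and C chains, binds a surface. C1r then activates C1s, which cuts C4 and C2, and the enzyme formed from their fragments cuts C3, where all routes of activation meet. The liver supplies most circulating components, while macrophages are the main source of C1q and fibroblasts make C1r, C1s and C3. Clusterin holds unfolded extracellular proteins in solution and also binds the terminal complement complex before it can insert into a membrane.

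Genes of the set lie in small clusters of the rat genome. C1qb, C1qc and C1qa are consecutive protein-coding genes on chromosome 5, C1r and C1s are neighbours on chromosome 4, and C2 lies next to Cfb on chromosome 20. C4b has a near copy, C4a, on the same chromosome. The stretches upstream of 4 of these genes are shown because C4b and C4a gave similar signals while the neighbours C1qb and C1qa did not. Each is the 250 bases before the annotated start, 5′ to 3′ on the gene's strand, from RefSeq on GRCr8. They are, in order, chr20:4201729-4201978 (plus strand), chr20:4010107-4010356 (plus strand), chr5:154407828-154408077 (minus strand) and chr5:154419934-154420183 (minus strand). Capitals mark matches to 4 motifs searched on both strands: GAGGAA (the core bound by the myeloid factor PU.1), TTCNNNGAA (STAT factors), TTGCNNAA (C/EBP factors) and the interferon response element.
C4b: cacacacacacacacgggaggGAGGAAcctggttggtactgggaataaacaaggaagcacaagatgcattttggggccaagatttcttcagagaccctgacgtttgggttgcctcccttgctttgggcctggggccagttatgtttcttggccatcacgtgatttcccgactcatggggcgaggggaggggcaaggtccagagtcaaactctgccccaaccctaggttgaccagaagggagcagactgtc
C4a: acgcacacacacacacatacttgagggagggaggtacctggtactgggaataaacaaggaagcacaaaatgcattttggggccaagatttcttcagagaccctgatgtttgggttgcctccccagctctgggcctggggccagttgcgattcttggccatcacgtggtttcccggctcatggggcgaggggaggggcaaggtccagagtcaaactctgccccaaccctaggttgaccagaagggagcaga
C1qb: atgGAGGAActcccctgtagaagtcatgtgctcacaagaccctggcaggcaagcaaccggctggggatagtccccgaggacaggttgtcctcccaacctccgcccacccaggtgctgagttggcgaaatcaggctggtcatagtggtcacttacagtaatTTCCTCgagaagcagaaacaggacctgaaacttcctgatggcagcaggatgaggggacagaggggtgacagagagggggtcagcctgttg
C1qa: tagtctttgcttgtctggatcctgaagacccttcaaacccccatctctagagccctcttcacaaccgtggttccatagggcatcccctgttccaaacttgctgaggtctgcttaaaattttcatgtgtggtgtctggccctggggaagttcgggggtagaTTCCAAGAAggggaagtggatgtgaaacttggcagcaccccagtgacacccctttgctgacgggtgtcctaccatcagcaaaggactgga

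The C4b and C4a stretches were identical at 229 of 241 aligned positions, with a longest unbroken match of 75 bases. GAGGAA was found 1 time upstream of C4b, at positions -229 to -224 with position 0 as the start, and 2 times upstream of C1qb, at -247 to -242 and at -90 to -85. The C1qa stretch held 1 match to TTCNNNGAA, at -90 to -82, and none to the other motifs, and the C4a stretch held none of the 4. Of 33469 rat promoters of the same length, 23.3% contain GAGGAA, 7.67% TTCNNNGAA, 9.22% TTGCNNAA and 3.41% the interferon response element. A match of letters is a description and no evidence of binding. Promoters of C1r and C3 were also found, and those of C1qc, C1s, C2 and Clu are named only.

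Clu and C4b rose between P 1d and P 6w, C1qb fell, and the other 5 measured genes were not called. Over all 22093 genes, 2.46% were called higher and 16.8% lower at P 6w, 19.2% in all. The median difference of the 8 genes was 0.025, beside 0.043 over all genes. The P 6w and P 1d arrays did not overlap for 4 of the 8 genes, 3 of them higher and 1 lower at P 6w. Such a separation was found in 68.9% of all genes, with P 6w higher in 34.8% and lower in 34.1%.

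**Figure D1:**
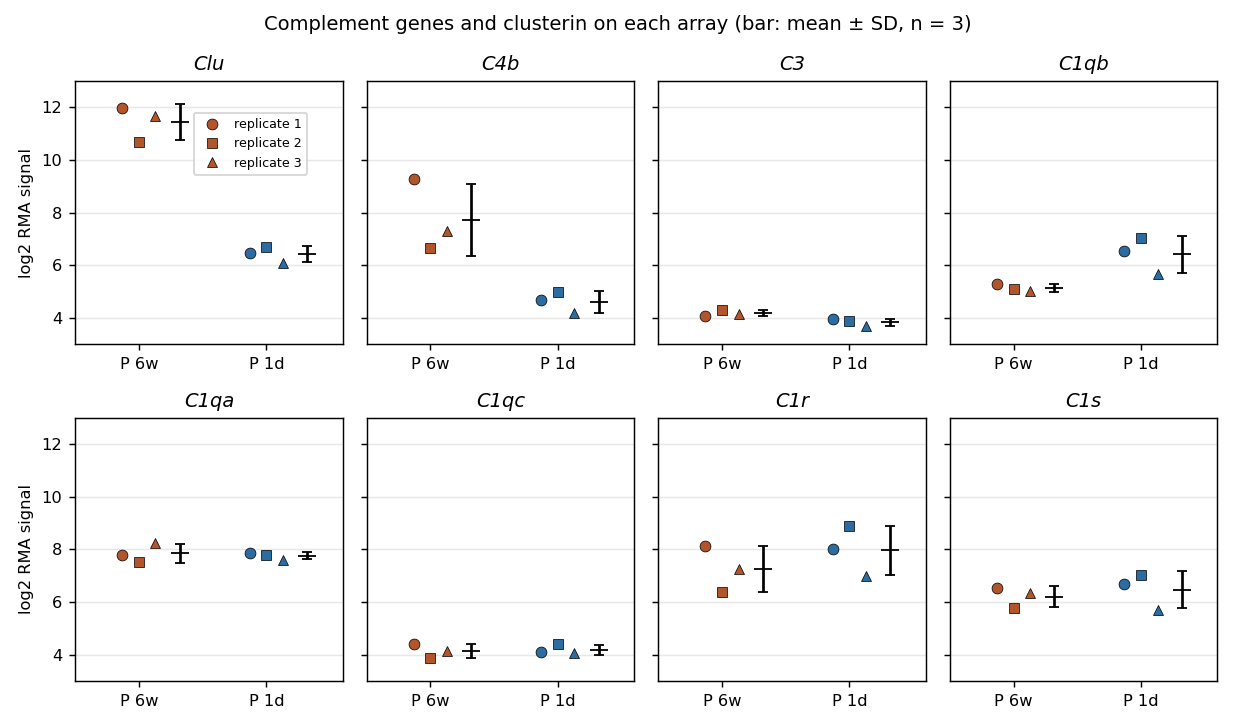
Log2 RMA signal (vertical axis) of the 8 measured genes on each array, P 6w in brown and P 1d in blue, with marker shape for the replicate and a bar for the mean ± SD (n = 3). Clu lies at 10.68 to 11.97 at P 6w and 6.10 to 6.70 at P 1d, while C3 and C1qc stay below 4.5 on every array.

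Clu stood at 11.97, 10.68 and 11.69 on P 6w replicates 1 to 3, against 6.47, 6.70 and 6.10 on P 1d replicates 1 to 3. All P 6w arrays were thus far above all P 1d arrays, the closest pair of arrays being 3.98 apart and the farthest 5.87. The mean was 11.45 ± 0.68 (SD, n = 3) at P 6w and 6.42 ± 0.30 (SD, n = 3) at P 1d, which is 5.02 apart on the log2 scale or 32.5-fold (limma, standard error 0.37, adjusted p = 0.000513). By the size of this difference Clu ranked 11 from the highest of the 22093 genes. Within each array, Clu ranked at the 98.9th to 99.0th percentile of genes at P 6w and at the 70.4th to 76.9th at P 1d. An exact two-sided permutation test gave p = 0.1, the smallest that 3 arrays against 3 allow. Clu was called in each fit that left out 1 array (adjusted p from 0.000599 to 0.00446). Set against P 1d replicate 2, the array with dim epidermal genes, the P 6w mean was 4.75 higher. Only the size is given, since that arm is 1 array.

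C4b stood at 9.27, 6.64 and 7.29 on the P 6w arrays, against 4.69, 4.99 and 4.17 on the P 1d arrays. The groups did not overlap, and P 6w replicate 1 was well above the other P 6w arrays. C4b, the source of the C4 fragment that anchors the classical C3 convertase, averaged 7.73 ± 1.37 (SD, n = 3) at P 6w and 4.62 ± 0.41 (SD, n = 3) at P 1d. These means lie 3.12 apart on the log2 scale, or 8.67-fold (limma, standard error 0.71, adjusted p = 0.0153). Without P 6w replicate 1 it was 2.35 (adjusted p = 0.00701), and the call was lost without P 1d replicate 1 (3.15, adjusted p = 0.0508) and without P 1d replicate 3 (2.89, adjusted p = 0.0565). At P 1d the signal was near the median of the named genes, 4.61 to 4.66, so how far it lay above background is unknown.

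A second row named C4b was close to the first on each array, at 6.58 to 9.25 at P 6w and at 4.26 to 5.0 at P 1d. C4a was at 8.34, 6.37 and 6.81 at P 6w and 4.63, 4.89 and 4.24 at P 1d (log2 difference 2.59, adjusted p = 0.0116 from limma). Since C4a and C4b are near copies, probes may read both genes, and which of them rose cannot be told apart. The joint row of C2, the protease that pairs with C4b, and Cfb, its counterpart in the alternative pathway, was at 5.38, 4.70 and 4.82 at P 6w and 4.22, 4.22 and 3.96 at P 1d. Named for 2 genes, it entered no fit.

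C3, the central component of the cascade, had 4.09, 4.30 and 4.14 at P 6w and 3.95, 3.87 and 3.69 at P 1d. The groups did not overlap, as in 68.9% of all genes. The difference was 0.34 (95% interval 0.095 to 0.58, adjusted p = 0.0316 from limma), below the limit for a call. After quantile normalization it was -0.036 (adjusted p = 0.80 from limma). On every array C3 was among the dim genes, between percentiles 21.1 and 35.9.

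Of the C1q chains only C1qb was called. It had 5.30, 5.11 and 5.01 at P 6w, against 6.55, 7.02 and 5.66 at P 1d. All P 6w arrays were below all P 1d arrays, and the P 1d arrays were the more scattered. C1qb fell by 1.27 on the log2 scale at P 6w (standard error 0.35, adjusted p = 0.0286 from limma), with means of 5.14 ± 0.15 (SD, n = 3) at P 6w and 6.41 ± 0.69 (SD, n = 3) at P 1d. The call was lost when any array other than P 1d replicate 3 was left out (differences from -1.35 to -0.97, adjusted p from 0.0615 to 0.0896), and with each array centred on its bright genes the difference was 0.52.

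C1qa had 7.77, 7.53 and 8.25 at P 6w and 7.87, 7.79 and 7.60 at P 1d, with overlapping groups and a difference of 0.10 (95% interval -0.40 to 0.60, adjusted p = 0.69 from limma). Its rank within the array was higher at P 6w, at the 91.8th to 94.9th percentile of genes, against the 84.4th to 86.6th at P 1d. Fewer genes reached a signal of 8 at P 6w (968 to 1607, against 2783 to 2873 at P 1d). A deposited signal near 8 that is unchanged therefore ranks higher at P 6w. Whether C1qa was unchanged depended on the scaling. Its difference was 1.53 after quantile normalization, and 1.04, 1.89 and -0.03 with arrays centred on reference genes, bright genes and the median of named genes. C1qc was too dim to show whether it moved, at 4.41, 3.87 and 4.14 at P 6w and 4.10, 4.40 and 4.06 at P 1d (difference -0.047, 95% interval -0.47 to 0.38). Within arrays, C1qb minus C1qa was -2.47, -2.42 and -3.24 at P 6w, against -1.32, -0.77 and -1.94 at P 1d. The groups did not overlap in that measure (exact two-sided permutation test, p = 0.1, and p = 0.125 after Benjamini-Hochberg adjustment over 5 pairs of genes). The same was found for C1qb minus C1qc, C4b minus C3 and Clu minus C4b, with equal p-values. C1qb alone did not overlap either, and no share over all pairs of genes was computed, so nothing particular to the C1q chains was read from it.

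C1r and C1s, the proteases carried by C1q, were moderately bright at both ages. C1r had 8.13, 6.37 and 7.25 at P 6w and 8.01, 8.87 and 7.0 at P 1d. C1s had 6.53, 5.76 and 6.33 at P 6w and 6.70, 7.01 and 5.68 at P 1d. The ages overlapped for both genes. Their differences were -0.71 (95% interval -2.31 to 0.89) for C1r and -0.26 (95% interval -1.26 to 0.75) for C1s, so a fall of over 1 on the log2 scale lies within both intervals. C1r minus C1s changed by -0.45 (standard error 0.34, exact permutation test, two-sided, p = 0.3).

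**Figure D2:**
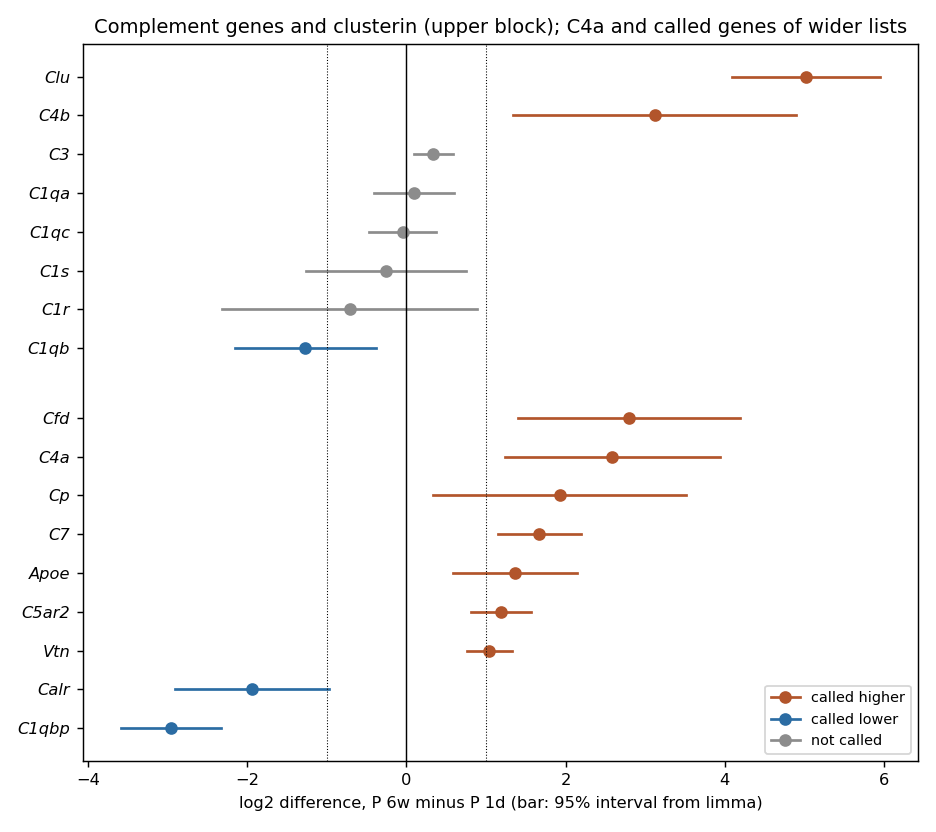
Log2 difference, P 6w minus P 1d (horizontal axis), with its 95% interval from limma for the 8 measured genes (upper block) and for C4a and the called genes of the wider lists (lower block), coloured by call. Clu at 5.02 and C4b at 3.12 stand apart from the other genes of the set, whose differences run from -1.27 to 0.34, and dotted lines mark the limits of -1 and 1.

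Some of the other genes of the pathway were called as well. Over all genes, 2.46% were called higher and 16.8% lower at P 6w. Of 9 measured genes of the alternative and terminal pathways, 2 were higher at P 6w, none was lower and 7 were not called (median difference 0.40). Several lay near the array median, which over all rows was 4.43 to 4.54 at P 6w and 3.93 to 3.98 at P 1d. The median differences of this and the following lists were therefore not read as a rise of a pathway. Cfd, which encodes factor D, the adipocyte-derived protease that cuts factor B, had 8.95, 7.56 and 6.79 at P 6w and 5.11, 5.10 and 4.71 at P 1d (difference 2.79, adjusted p = 0.00998 from limma). C7, a component of the membrane attack complex, had 7.91, 8.51 and 7.93 at P 6w and 6.18, 6.57 and 6.59 at P 1d (difference 1.67, adjusted p = 0.00229). The ages did not overlap for Cfd and C7, as for 68.9% of all genes. Cfp, which encodes the convertase stabiliser properdin, was at 4.65 to 4.76 at P 6w and at 5.25 to 5.39 at P 1d, a difference of -0.60 that is below the limit.

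None of 9 genes of the lectin pathway was called (median difference 0.33), and 6 of them had groups that did not overlap, beside 68.9% of all genes. The brightest of them, the scavenger receptor gene Colec12, had 8.83, 7.40 and 8.44 at P 6w and 10.04, 9.89 and 8.64 at P 1d (difference -1.30, adjusted p = 0.0865 from limma).

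Among 9 measured inhibitors 1 was higher, beside 2.46% of all genes, and none was lower (median difference 0.30). Vtn, which encodes vitronectin, a plasma and matrix protein that blocks the terminal complex, rose by 1.04 (adjusted p = 0.00143 from limma), with 5.86 to 6.18 at P 6w and 4.93 to 5.08 at P 1d. Serping1, the gene of the C1 inhibitor that inactivates C1r and C1s, was brighter but more scattered, at 11.19, 8.09 and 10.63 at P 6w and 7.55, 8.31 and 6.85 at P 1d. P 6w replicate 2 lay inside the P 1d range, and the difference of 2.40 was not called (adjusted p = 0.0687). Vsig4, a C3b receptor of resident macrophages that also inhibits the alternative convertase, stayed between 3.27 and 3.78 on all arrays.

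Of 15 receptor genes for complement and clusterin, 2 were lower and 1 higher (median difference -0.077), beside 16.8% and 2.46% of all genes. The lower ones were C1qbp, whose product was first found as a C1q-binding protein but resides mainly in mitochondria, with 7.47 ± 0.27 at P 6w and 10.43 ± 0.41 at P 1d (SD, n = 3 each, adjusted p = 0.000722 from limma), and Calr, the endoplasmic reticulum chaperone calreticulin, which can bind C1q at the cell surface, with 12.82 ± 0.75 at P 6w and 14.77 ± 0.17 at P 1d (SD, n = 3 each, adjusted p = 0.00988). C5ar2, a receptor for C5a, was dim and higher by 1.19 (adjusted p = 0.00238). The C3a receptor gene C3ar1 and the subunits Itgam and Itgb2 of complement receptor 3 were not called, with differences of -0.69, -0.087 and -0.027. Lrp1, a clearance receptor of the low-density lipoprotein receptor family, had a difference of -1.28 (adjusted p = 0.119), and Trem2, a myeloid receptor that binds clusterin, stayed between 3.85 and 4.32.

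Of 14 acute-phase and extracellular lipid or protein carriers, 2 were higher, beside 2.46% of all genes, and none lower (median difference 0.43). Cp, which encodes the copper ferroxidase ceruloplasmin, had 8.58, 6.27 and 6.74 at P 6w and 5.32, 5.61 and 4.89 at P 1d (difference 1.92, adjusted p = 0.0479 from limma). Apoe, the gene of the lipid carrier apolipoprotein E, had 7.09, 6.01 and 6.14 at P 6w and 5.20, 4.83 and 5.11 at P 1d (difference 1.37, adjusted p = 0.0152). P 6w replicate 1 was the highest array for Cp and Apoe, as it was for Serpina3n, C4b, C4a, Cfd and Serping1. It was the highest P 6w array for 55.4% of all genes with a mean signal of at least 5.

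The adipocyte genes Adipoq and Cidec rose and were also highest on that array (limma, adjusted p = 0.0132 and 0.00200). Adipoq, which encodes adiponectin, had 11.47, 8.15 and 7.77 at P 6w and 4.24, 4.92 and 3.86 at P 1d, and the lipid droplet gene Cidec had 6.52, 5.61 and 5.42 at P 6w and 3.09, 3.47 and 3.21 at P 1d. Of the 7 adipocyte markers, 4 were called higher and 1 lower at P 6w, beside 2.46% and 16.8% of all genes. Their mean signal was 7.53, 6.52 and 6.55 at P 6w, against 5.63, 5.80 and 5.59 at P 1d. The lower one was Car3, a carbonic anhydrase gene that is also abundant in muscle and stood between 13.18 and 14.84 at P 6w and between 17.06 and 17.19 at P 1d. The log2 of the summed signal of the list, which Car3 dominates, was 13.25 to 14.97 at P 6w and 17.06 to 17.19 at P 1d. The part of adipocytes in the rise of C4b was not tested.

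**Figure D3:**
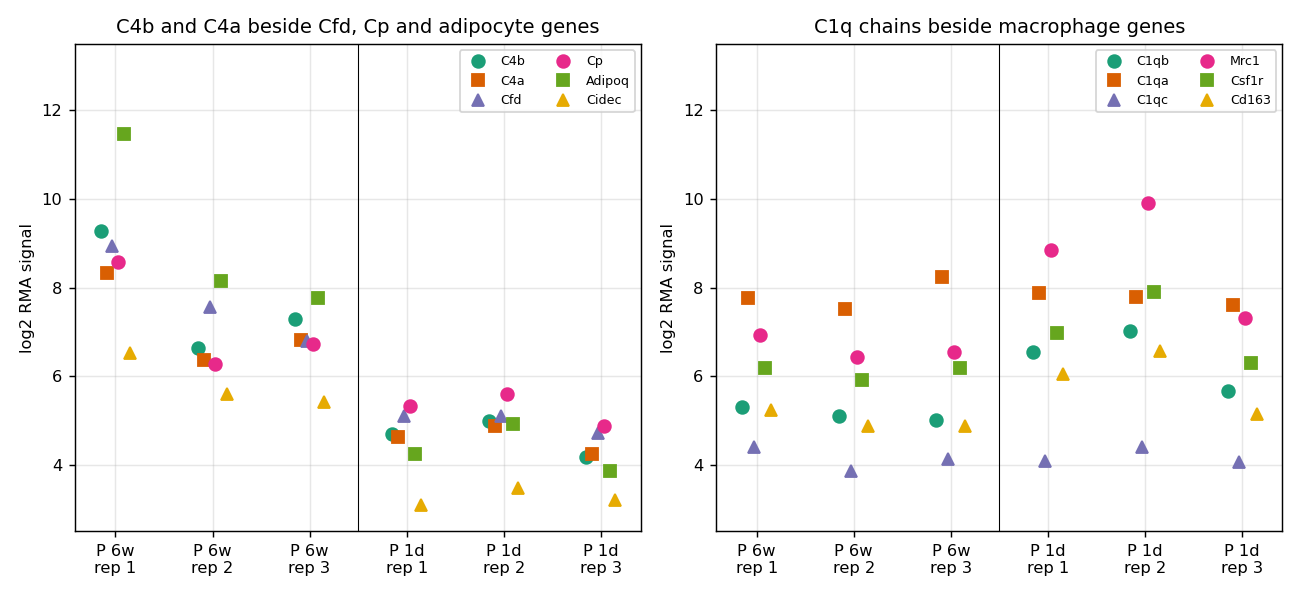
Log2 RMA signal (vertical axis) by array, P 6w left of P 1d, of C4b and C4a with Cfd, Cp and the adipocyte genes Adipoq and Cidec (left panel) and of the C1q chains with the macrophage genes Mrc1, Csf1r and Cd163 (right panel). P 6w replicate 1 is the highest array for all 6 genes on the left. It is the highest P 6w array for 55.4% of all genes with a mean signal of at least 5. P 1d replicate 2 is the highest for C1qb and the 3 macrophage genes on the right, where C1qa stays between 7.53 and 8.25. It is the highest P 1d array for 25.9% of those genes. The genes shown are a selection: the adipocyte marker Car3, called lower at P 6w, and the macrophage marker Lyz2, called higher, are not drawn.

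Macrophages are the main source of C1q in tissue. Of 17 measured macrophage markers, 3 were lower, 1 was higher and 13 were not called (median difference -0.24), a share of lower genes close to the 16.8% over all genes, and their mean signal was 4.89 to 5.13 at P 6w and 5.02 to 5.93 at P 1d. The log2 of their summed signal was 9.20 to 9.59 at P 6w and 9.65 to 11.65 at P 1d. Lyve1 and Mrc1, endocytic receptor genes of tissue-resident macrophages that lymphatic and sinusoidal endothelium also express, fell by 2.68 and 2.06 at P 6w (limma, adjusted p = 0.0266 and 0.0444), and the lysosomal gene Cd68 fell by 1.25 (adjusted p = 0.0463). Lyz2, which encodes lysozyme, rose by 1.08 (adjusted p = 0.0114). Csf1r, the gene of the receptor for macrophage colony-stimulating factor, had 6.19, 5.92 and 6.19 at P 6w and 6.97, 7.90 and 6.29 at P 1d (difference -0.95, adjusted p = 0.0984), and Adgre1, which encodes F4/80, lay between 4.17 and 4.40 on all arrays. Among the P 1d arrays the order of C1qb, highest on replicate 2 and lowest on replicate 3, was that of most measured macrophage markers. Csf1r, Mrc1, Lyve1, Cd163, Cd68, Lyz2, Adgre1, Cd14, Folr2, Tyrobp, Laptm5, Ctss and Fcgr1a had it. This order was not particular to macrophage genes, since Clu, C4b, C1qc, C1r and C1s had it too. The macrophage markers Aif1 and Fcer1g did not have it and were highest on P 1d replicate 1, and Cx3cr1 and Ms4a7 were equal on replicates 1 and 2. The part of macrophage number in the fall of C1qb was not tested.

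Of 9 fibroblast markers 4 were lower and 1 was higher, beside 16.8% and 2.46% of all genes. Their mean signal was 9.31 to 10.78 at P 6w and 10.64 to 11.40 at P 1d. Col3a1, the type III collagen gene, had a difference of -2.54 (adjusted p = 0.0137 from limma) and Gsn, which encodes the actin-severing protein gelsolin, of 2.58 (adjusted p = 0.0348), while Dcn, the gene of the proteoglycan decorin, was at 18.94 or above at P 6w and between 17.69 and 18.90 at P 1d.

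The array order recurred over the set. P 1d replicate 3 was the lowest P 1d array for all 8 measured genes and P 1d replicate 2 the highest for 6 of them. Over all genes, P 1d replicate 3 was the lowest for 26.3% and P 1d replicate 2 the highest for 18.6%. At P 6w, replicate 2 was the lowest array for 6 of the 8 and replicate 1 the highest for 6, beside 36.5% and 37.2% of all genes, and 56.5% and 55.4% of the 9673 genes with a mean signal of at least 5. P 1d replicate 3 was also the array with the highest Krt1, and its part in the order was not tested.

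The genes with the closest profiles were found by the root mean square difference over the 6 arrays, after subtracting each gene's own mean. C4a was the closest to C4b (0.33), followed by Fgl2, which encodes a fibrinogen-like protein (0.38). For Clu they were Ccdc3 (0.42) and Itgbl1 (0.46), with differences of 5.07 and 5.53, and for C1qb the adhesion receptor gene Adgrd1 (0.11) and the macrophage scavenger receptor gene Cd163 (0.18). Those of C1r were Scpep1 and Tgfbr3 (0.23 and 0.26) and those of C1s were Igfbp6 and Enpp2 (0.18 and 0.19). The profiles of C1qa, C1qc and C3 are nearly flat, so that the closest genes, at 0.016 to 0.073, were other nearly flat ones: Rps12l4 and Nnmt for C1qa, Lgals9 and Ift140 for C1qc, and Gas8 and Dcxr for C3.

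**Figure D4:**
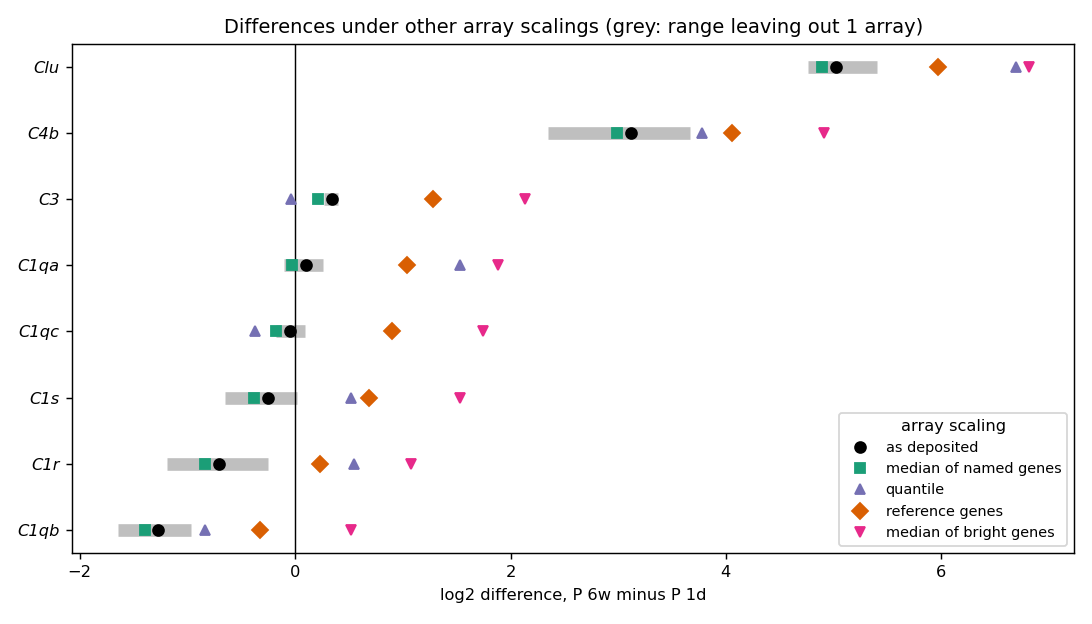
Log2 difference, P 6w minus P 1d (horizontal axis), of the 8 measured genes with the arrays as deposited and under 4 other scalings, with a grey bar for the range when 1 array is left out. Clu, at 4.90 to 6.81, and C4b, at 2.99 to 4.91, stay positive under each scaling, whereas the markers of C1qb, C1qc, C1r, C1s, C1qa and C3 fall on both sides of 0.

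The rises of Clu and C4b kept their direction under every scaling tried, from 4.90 to 6.81 for Clu and from 2.99 to 4.91 for C4b. The directions of the other 6 genes did not. Centring takes the same amount from every gene's difference: 0.13 for named genes, -1.79 for bright genes and -0.94 for reference genes. Such amounts could not reverse the 5.02 of Clu or the 3.12 of C4b, so those settings could not have changed their direction. Quantile normalization, which is not such a shift, gave 6.70 for Clu and 3.78 for C4b. Quantile normalization gave 1.53 for C1qa (adjusted p = 0.00808 from limma), and centring each array on its bright genes made 7 of the 8 genes higher, as it did 78.2% of all genes.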

How the data were processed

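Total RNA of whole Achilles tendon from 6 rats was hybridised to Affymetrix Rat Transcriptome Array 1.0 chips, 3 from P 6w and 3 from P 1d animals. The authors condensed the probes by RMA, left at its defaults with a global scaling, and the values they deposited are log2 signals. The RMA version and the genome build of the array annotation are not given in the sources used here. Both deposited tables held equal values (413052 of 413052), so they gave no alternative. No detection calls come with them, so the precision is set by the number of arrays and how far a signal lies over background.

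Gene names came from the platform annotation and were brought up to date with a RefSeq gene table on GRCr8, used only for names and neighbouring genes. Of 68842 rows, 23446 named 1 gene, 505 several and 44891 none. Each of 22093 genes was represented by its brightest row on average. Ages were compared with limma 3.58.1 in R 4.3.3 (lmFit and eBayes, no covariates). Calls needed an adjusted p under 0.05 (Benjamini-Hochberg, all genes) and an absolute log2 difference over 1. The methods' t-test used a fold change over 2 and an unadjusted p under 0.05.

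Replicate numbers are shared between the ages but mark different rats. The genes and lists were chosen with earlier results of these data known. Named were all 9 genes of the set, called genes of the wider lists (up to 3 in each direction), the 3 brightest markers of a cell type, and the 2 closest profiles of each gene. Outside that rule, C4a, Serping1, Lyz2, Cd68, Adgre1, Vsig4, Colec12, Cfp, C3ar1, Itgam, Itgb2, Trem2 and Lrp1 were chosen after their values were seen. So were Aif1, Fcer1g and Serpina3n. Simulated data were used to check the limma step. Promoter sequences came from RefSeq on GRCr8.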

Additional observations from a re-analysis of the deposited data

How the results depend on the processing

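The set held 1 lower and 2 higher genes, and so it did by the methods' t-test at its own threshold, which called 16.6% of all genes lower and 2.32% higher. No gene was lower under the methods' t-test with Benjamini-Hochberg adjustment, after quantile normalization, or with arrays centred on bright genes or on 10 reference genes (0 lower in each). In that order, 15.8%, 4.48%, 2.68% and 6.47% of all genes were lower. Leaving out 1 array gave 0 to 1 lower and 1 to 2 higher genes, beside 15.2% to 18.1% and 1.69% to 3.06% of all genes. The number higher was 7 on bright genes and 4 on reference genes, beside 78.2% and 48.8% of all genes. Against P 1d replicate 2 alone, the spread came from the P 6w arrays and the lone array was assumed to vary like them. Differences there were 4.75 for Clu, 2.74 for C4b and -1.88 for C1qb. C1qb was 0.52 on bright genes. Also on bright genes, C1qc was 1.74, C1r 1.08 and C1s 1.53, and on reference genes these were 0.90, 0.23 and 0.69. After quantile normalization C1r was 0.55, C1s 0.52 and C3 -0.036. Leaving out 1 array gave -0.10 to 0.26 for C1qa (negative without P 6w replicate 3), -0.18 to 0.088 for C1qc (0.06 without P 1d replicate 2, 0.088 without P 6w replicate 2) and -0.65 to 0.017 for C1s (positive without P 1d replicate 2). C1qa was -0.03 on the median of named genes. The causes were not tested. Of 134 single values, 102 kept direction and side of the limits, 13 lost the call, 8 gained one and 15 changed sign, 4 of these 15 with a gained or lost call. With dim genes left out, C1qc and C3 were not fitted.

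Over all genes 3705 were lower and 544 higher (87.2% lower). The split was 990 and 894 after quantile normalization (52.5% lower), 1429 and 10780 on reference genes (11.7% lower) and 591 and 17280 on bright genes (3.31% lower), with medians of 0.99 and 1.83 in the last 2. Against P 1d replicate 2 alone it was 1092 and 67. Same-numbered arrays did not pair: their deviations correlated at 0.010, -0.11 and 0.046. With the replicate block, Clu differed by 5.02 (adjusted p = 0.00732), C4b by 3.12 (adjusted p = 0.0316) and C1qb by -1.27 (adjusted p = 0.0368), and the set still held 1 lower and 2 higher genes, of 3635 and 501 overall. After quantile normalization 3 of 9 inhibitors were higher, beside 4.05% of all genes, and 1 of 15 receptor genes was lower, beside 4.48%. Signals near the array median, as for C3 and C1qc, limit what can be read.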

Other observations

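Hepatocyte and neutrophil markers were dim. Of 6 measured hepatocyte markers none was called, with a mean signal of 4.07 to 4.09 at P 6w and 3.68 to 4.21 at P 1d. Albumin (Alb) was at 4.38 to 4.53 at P 6w and at 6.01, 3.85 and 4.04 at P 1d, and Ttr and F2 stayed at or below 4.58 and 4.12. None of 7 neutrophil markers was called (mean 3.96 to 4.23 at P 6w and 3.61 to 3.65 at P 1d), and S100a9, a calcium-binding protein gene of neutrophils, had 4.83 ± 0.22 at P 6w and 3.91 ± 0.11 at P 1d (SD, n = 3 each). Nor was any of 4 Schwann cell markers (mean 4.94 to 5.19 at P 6w and 5.03 to 5.11 at P 1d) or 3 erythroid markers (6.07 to 7.06 at P 6w and 5.17 to 6.30 at P 1d). Of 7 skeletal muscle markers 4 were lower and 1 higher, beside 16.8% and 2.46% of all genes. Their mean was 11.76 to 13.61 at P 6w and 14.68 to 15.11 at P 1d. None of 6 tendon markers was called (8.65 to 10.44 at P 6w and 9.67 to 10.33 at P 1d).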
